A study of Mus musculus with 23 samples.

Results

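The genes described here lie on mouse chromosome 17 around Zfp57, in an interval of 14.9 Mb whose first member starts at 33661030 and whose last member ends at 48608009 (mm9). They were chosen by position and by measured values. The ends of the interval were placed with the allele reads of these embryos in view, and genes with fewer than 20 allele reads per embryo on average, paternal and maternal reads together, were not taken. Symbols starting with H2-, Zfp57 itself and a pair of other genes were left out. This gave 134 members of 26183 gene symbols in the tables. In all, 6577 genes of the series and 363 genes of chromosome 17 had that many allele reads, and the interval held 150 such genes before 16 were left out by symbol. Just inside the minimum were A930015D03Rik, with a mean of 20.3 allele reads, and Frs3, with 20.6. Just outside it were Treml1, with 19.3, and Rhag, with 18.0.

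The embryos were whole E13.5 hybrids of 129 mothers and fathers called DBA*, which carried the deleted Zfp57 allele on a background mainly of DBA/2J. There were 6 female and 4 male M+Z+ embryos, from Zfp57+/- mothers, with Zfp57 in the oocyte and in the embryo. There were 3 female and 3 male M-Z+ embryos, from Zfp57-/- mothers, which had only the copy of the father. There were 4 female and 3 male M-Z- embryos, from Zfp57-/- mothers, with no functional copy. All fathers were Zfp57+/-. The titles write the genotype of M+Z+ and M-Z+ embryos alike, as Zfp57-/+. The deleted allele had been made on the 129 strain and crossed to DBA/2J 12 times, so a paternal chromosome with the deleted allele may hold 129 sequence around it. Reads over strain variants had been assigned to 129 (maternal) or DBA (paternal), so the paternal share is the DBA-assigned part of the allele reads. From the share alone, loss of a transcript from the father's chromosome and a 129 copy on that chromosome cannot be told apart. No test was made on paternal shares for these genes, since such values chose them.

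ZFP57 is a KRAB zinc finger protein that binds a methylated DNA motif at imprinting control regions and keeps their methylation after fertilisation. Its gene sits at the edge of the mouse major histocompatibility complex, a dense cluster of genes that is known for antigen presentation and also holds many housekeeping genes. When a deleted allele made in embryonic stem cells of one strain is moved to another by backcrossing, the genes linked to it tend to travel with it. The expression of linked genes can then differ by strain as well as by the deletion.

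The total count was 15.2 to 24.1 M reads per embryo, and 2.46 to 3.94 M of the reads were assigned to an allele. Zfp57, the targeted gene, stood at 25.5 to 35.3 CPM (counts per 1 M counts) in the 7 M-Z- embryos and at 52.7 to 99.1 CPM in the other 16. Male M-Z- replicate 2 stood apart from the other embryos, with the highest sum of the erythroid and the lowest of the fetal liver markers. The summed level of 5 erythroid marker genes was 13992 to 29861 CPM in male M-Z- embryos and 7714 to 15426 CPM in the other groups, and that of 3 fetal liver genes was 1921, 1523 and 4049 CPM in male M-Z- replicates 1 to 3 and 4109 to 6197 CPM in the other males, above all 3. It was 2246 to 6532 CPM in females. The 3 visceral yolk sac genes summed to 965 to 2425 CPM in male M-Z- embryos, and to 2402 to 3250 CPM in the other males. Afp is in both the fetal liver and the visceral yolk sac list, so these sums are not separate measures. The 4 neural genes summed to 939 to 1038 CPM in M-Z- and 1059 to 1179 CPM in M-Z+ females and to 938 to 1000.3 CPM in M-Z- and 1016 to 1061 CPM in M-Z+ males, with no overlap between these genotypes. In M+Z+ embryos they summed to 993 to 1222 CPM. The 4 placental markers summed to at most 0.490 CPM in any embryo, with all 4 at 0 in M-Z+ females and M-Z- males. The part of these cell types in the results below was not tested. In whole embryos, fewer cells of a type and less RNA per cell cannot be told apart. Nothing in the labels says that embryos of 1 group came from separate litters, so p-values measure the spread between these embryos.

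The members fell into a pair of stretches. The proximal stretch held 76 members, from Adamts10 to Gabbr1, which lies just beyond Zfp57. The distal stretch held 57 members, from Cenpq to Unc5cl. The stretches were divided, after the values were seen, at the widest distance between neighbouring members of both, 3.87 Mb, and Rn45s, which lies between, belonged to neither. A paternal share was computed where a gene had more than 10 allele reads in an embryo, and a share below 0.1 is called low here.

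In the proximal stretch, the paternal share was low in every M-Z- embryo. The median over members was 0 in each of the 7 M-Z- embryos, and 71 to 73 of the members with a share were low. In the 6 M-Z+ embryos the median was 0.484 to 0.512, and 1 or 2 members were low. In male M+Z+ embryos the medians were 0.495, 0.504, 0.497 and 0.506. The 6 female M+Z+ embryos did not behave alike. Replicates 1 and 2 had medians of 0.486 and 0.492. The other 4 female M+Z+ embryos share their allelic header names, 2 embryos to a name, so none has a number of its own. They are called unnumbered here, and had a median of 0 each, with 72 or 73 low members. The proximal share therefore did not follow the labelled genotype in all embryos, and a mean over female M+Z+ embryos describes neither set.

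**Figure D1:**
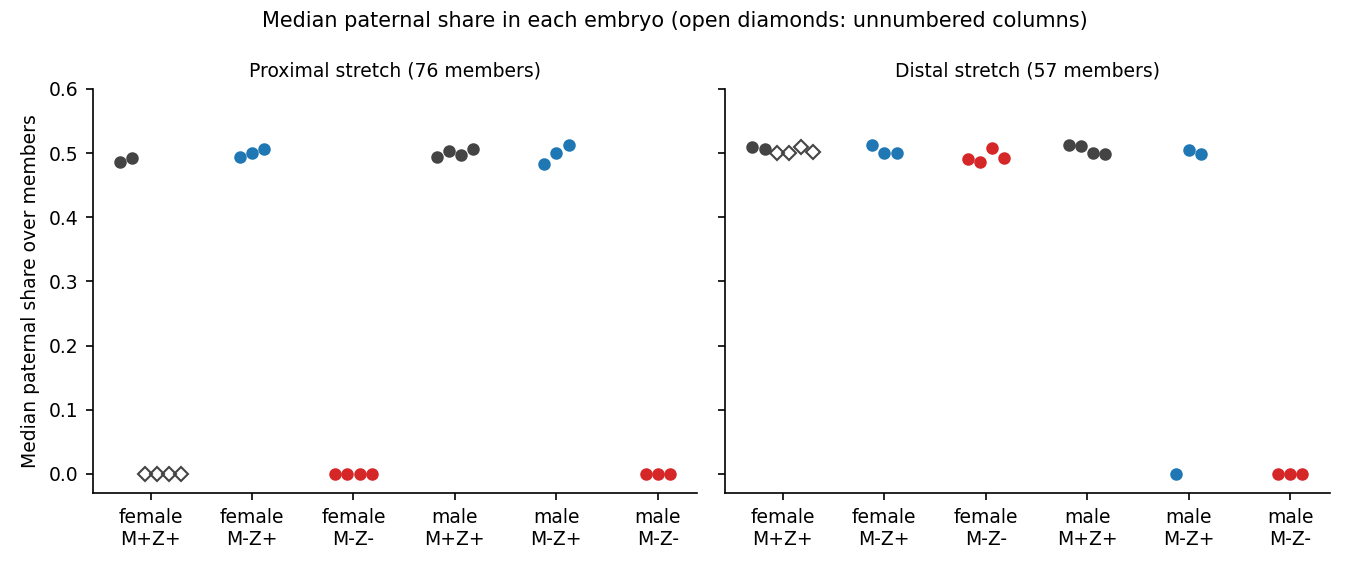
Each point is the median paternal share over the members of a stretch in 1 embryo, by sex and genotype. Open diamonds are the 4 female M+Z+ embryos called unnumbered, without a header number of their own. In the proximal stretch all 7 M-Z- embryos and the 4 unnumbered M+Z+ females lie at 0, and in the distal stretch the 3 M-Z- males and 1 M-Z+ male lie at 0.

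In the distal stretch, the share was low in M-Z- males and not in M-Z- females. Sex and the low distal share went together among M-Z- embryos, so they cannot be told apart there. The medians were 0 in the 3 M-Z- males, with 51 to 53 of the 56 or 57 members with a share low. They were 0.490, 0.486, 0.508 and 0.493 in the 4 M-Z- females, with 1 low member each. The 4 unnumbered M+Z+ females, at 0 in the proximal stretch, stood at 0.50 to 0.51 in the distal one. Male M-Z+ replicate 1 was the reverse of these, with a median of 0.484 in the proximal stretch and 0 in the distal one. The other M-Z+ males stood at 0.505 and 0.499 in the distal stretch.

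Along the distal stretch of male M-Z+ replicate 1 the low members began between Cyp39a1, a hydroxylase of cholesterol metabolism, and Enpp5, a member of the phosphodiesterase family. Of the 8 members up to Cyp39a1, 1 was low and the median share was 0.453. Of the 49 members from Enpp5 on, 45 were low and the median was 0. In the 3 M-Z- males, members on both sides of this point were low.

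**Figure D2:**
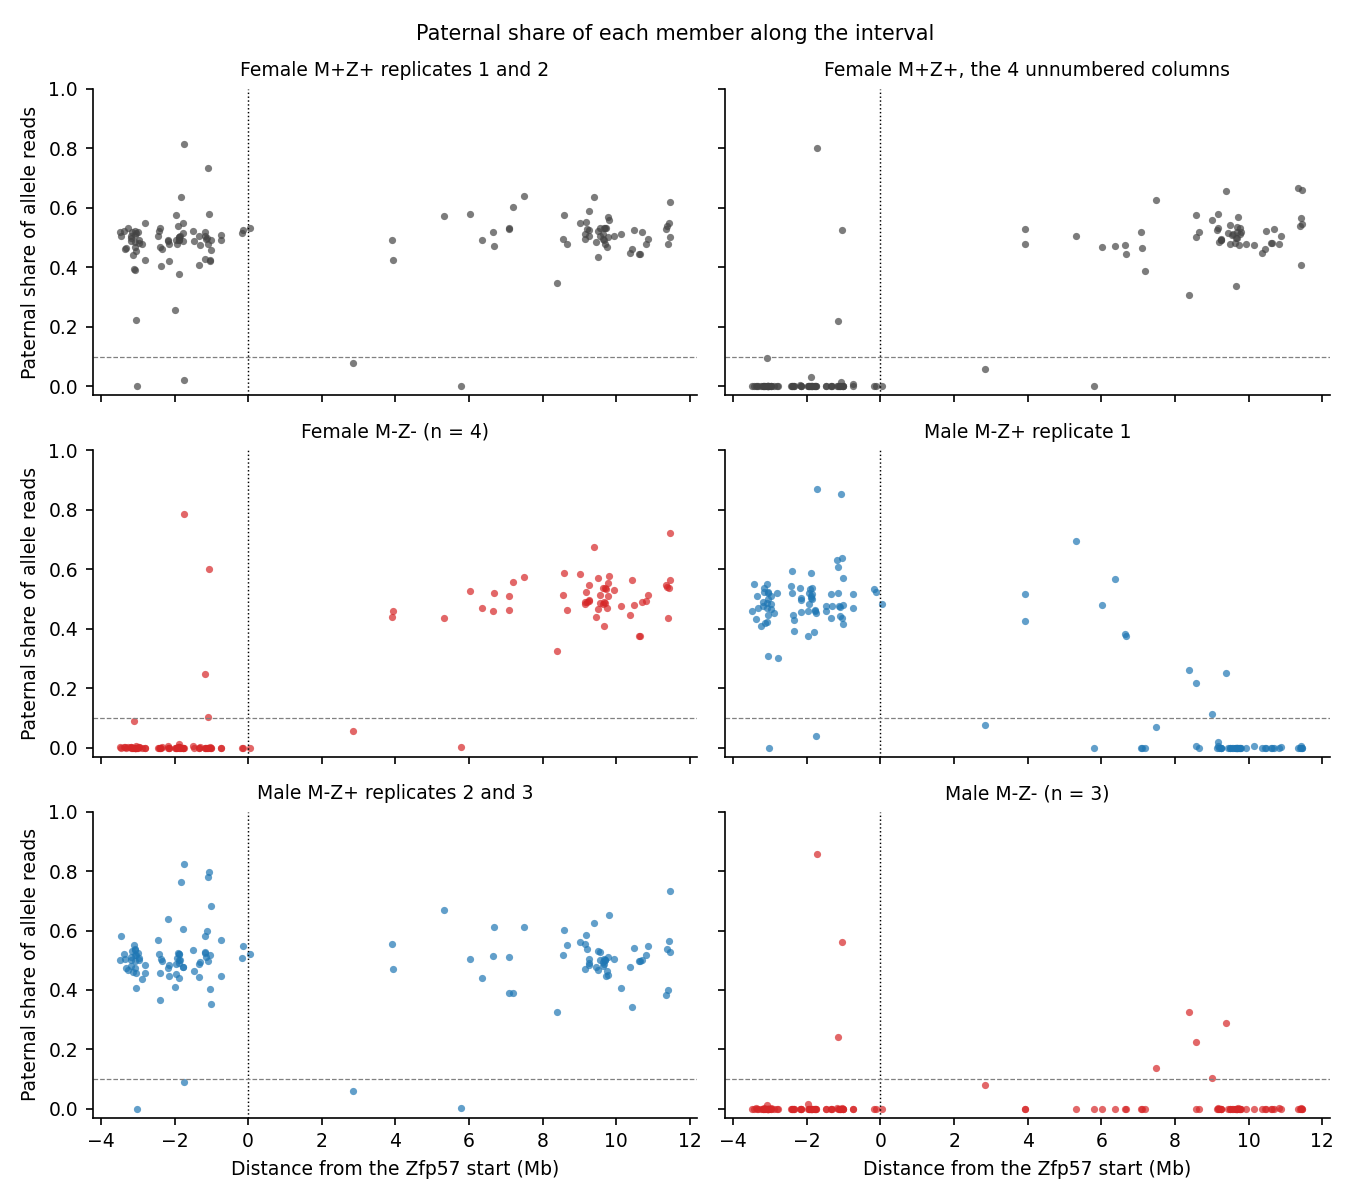
Each point is the paternal share of 1 member, averaged over the embryos named above the panel, against the distance of its start from the start of Zfp57 in Mb; the dotted line marks Zfp57 and the dashed line a share of 0.1. Proximal members lie near 0 in M-Z- embryos of both sexes and in the unnumbered M+Z+ females, and distal members lie near 0 in M-Z- males and, from Enpp5 on, in male M-Z+ replicate 1.

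The reads of both alleles together stayed close in number where the paternal reads were nearly gone. In the proximal stretch, paternal reads numbered 53.4 to 72.4 per M allele reads in M-Z- embryos and 58.3 to 65.2 in the unnumbered M+Z+ females. They numbered 8468 to 9162 in M-Z+ embryos. Maternal reads numbered 17198 to 18923 per M in M-Z- embryos, 16424 to 17391 in the unnumbered M+Z+ females and 8380 to 8979 in M-Z+ embryos. The sum of both was 17254 to 18977 per M in M-Z- embryos, 16483 to 17457 in the unnumbered M+Z+ females and 16848 to 18141 in M-Z+ embryos. These ranges of the sum overlapped, while those of each allele did not overlap between M-Z- and M-Z+ embryos.

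In the distal stretch of M-Z- males, paternal reads numbered 1923 to 2517 per M and maternal reads 12033 to 14627. In M-Z- females they numbered 7886 to 8953 and 6268 to 7283. The sum of both was 13956 to 17143 per M in M-Z- males and 14154 to 16236 in M-Z- females. Male M-Z+ replicate 1 had 2020 paternal and 11992 maternal reads per M, a sum of 14012. The pooled share of the distal stretch was 0.138 to 0.147 in M-Z- males, above their median of 0.

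**Figure D3:**
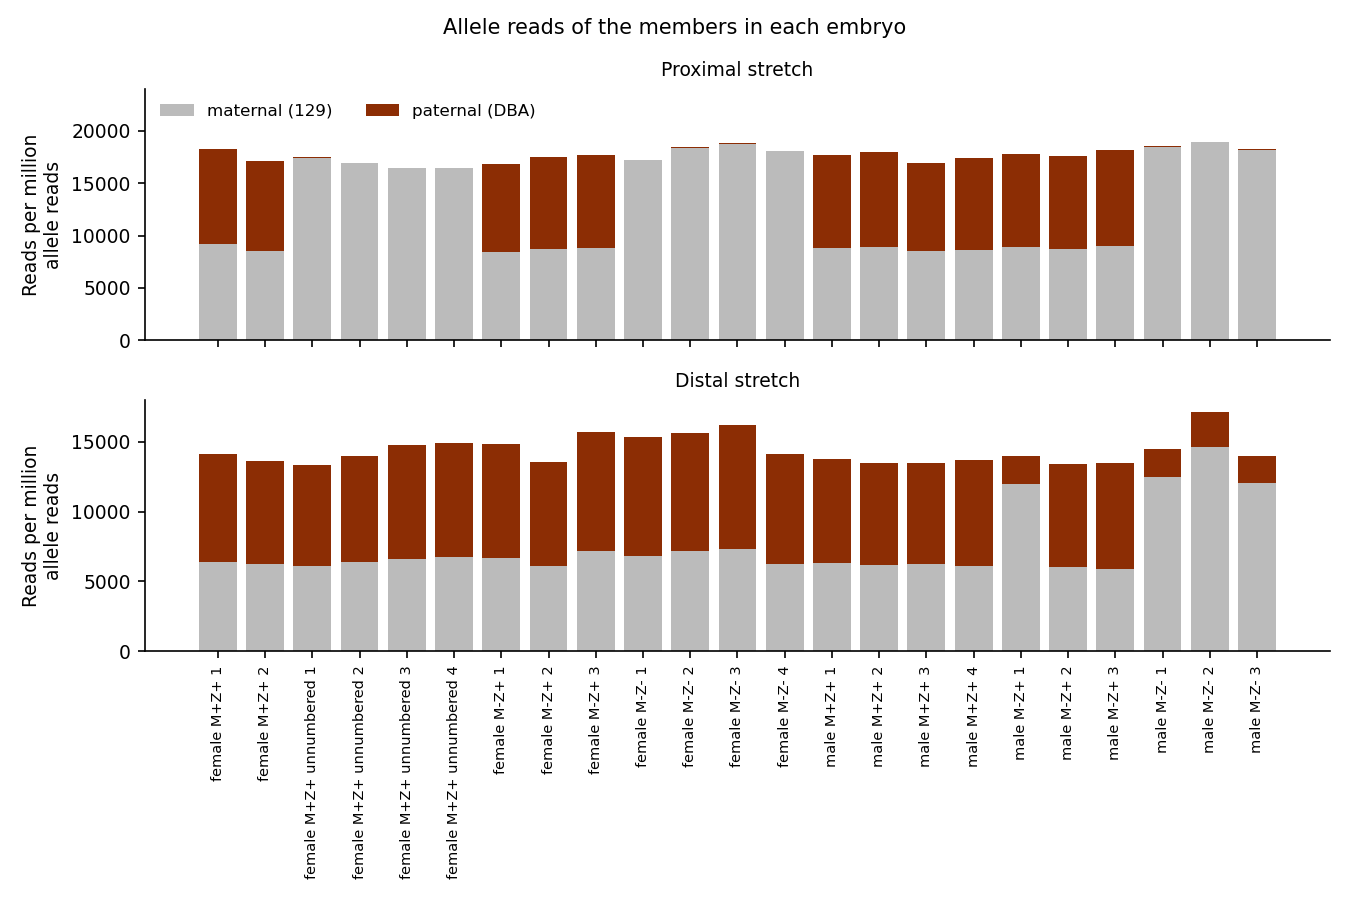
Bars give the maternal (129) and paternal (DBA) reads of the members per M allele-assigned reads in each of the 23 embryos, for the proximal stretch above and the distal stretch below. The paternal part is nearly absent from the proximal bars of 11 embryos, and the bar heights there stay between 16483 and 18977.

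The members nearest to Zfp57 showed the same pattern as their stretch. Gabbr1, a subunit of the GABA-B receptor, starts 0.0448 Mb beyond the Zfp57 start (37182911 to 37211250, plus strand). It had 0 paternal reads of 3554 allele reads in the 7 M-Z- embryos, which allows a share of up to 0.0844%. Its share was 0.525, 0.555 and 0.524 in the M-Z+ females and 0.483, 0.512 and 0.528 in the M-Z+ males. Limits and intervals from reads cover counting error only. Trim10, a protein of maturing red cells, had 0 paternal reads of 3985 in M-Z- embryos, a limit of 0.0753%. Trim26, a ubiquitin ligase, had 1 paternal read of 3726 in M-Z- embryos. On the far side of the gap, Cenpq, a centromere protein, and Mmut, the mitochondrial methylmalonyl-CoA mutase, had a share of 0 in the 3 M-Z- males. Mmut stood at 0.435, 0.459, 0.445 and 0.497 in the M-Z- females.

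The first and last members kept to this pattern up to the ends of the interval. Adamts10, a secreted metalloprotease of the extracellular matrix, is the first (33661030 to 33690727). Its share was 0, 0.00413, 0 and 0.00971 in M-Z- females and 0, 0.00262 and 0 in M-Z- males. In M-Z+ females it was 0.528, 0.536 and 0.474. Tspo2, a membrane protein of red cell precursors, and Apobec2, a muscle member of the deaminase family, lie near the other end, and both stood at 0 in the M-Z- males and male M-Z+ replicate 1. Unc5cl (48594226 to 48608009) is the last member, with 22.9 allele reads on average, and its share was 0 in male M-Z+ replicate 1 and in the M-Z- males with over 10 reads.

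The 3 genes with enough allele reads just outside each end did not split the embryos. Before the first member, the mean share over all embryos was 0.998 for Wiz, 0 for Zfp955a and 0.00285 for Zfp955b. Beyond the last member, Daam2 stood at 0.510 ± 0.0911 (SD, n = 23) and Plcl2 at 0.435 ± 0.0811, while Btg3 stood at 0.000713. In M-Z- males, Daam2 stood at 0.468 ± 0.146 (n = 3) and Plcl2 at 0.393 ± 0.0171. Since Wiz and both Zfp955 genes were at 1 end of the scale in every embryo, they do not show where the proximal stretch ends. Btg3 was also near 0 in every embryo, at most 0.0164, and does not show where the distal stretch ends. Its entries run from 50838006 to 78377426, which leaves its place uncertain.

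Not every member followed its stretch. In the proximal stretch, 69 of 76 members were low in every M-Z- embryo with a share and not low in any M-Z+ embryo. In the distal stretch, 51 of 57 were low in every M-Z- male and not low in M-Z+ embryos other than male replicate 1. Since the interval was drawn from such shares, these counts describe the choice and support nothing.

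In the members with the most allele reads the counting error of the share is smallest, though not all of them went to 0. Rn45s, given below, is among them. Rps18, a protein of the small ribosomal subunit, had 12 paternal reads of 78250 in M-Z- embryos, 0.0153%. Tubb5, a beta-tubulin, had 4 of 68323, 0.00585%. Rps28, another small-subunit protein, had shares of at most 0.00146 in M-Z- embryos. Hsp90ab1, the constitutive cytosolic HSP90 chaperone, had the most allele reads, 24902 per embryo. Its share did not reach 0 in M-Z- males but stood at 0.231, 0.223 and 0.224, with 0.218 in male M-Z+ replicate 1. In the M-Z- females it was 0.587, 0.580, 0.584 and 0.602. Genes of this kind have near-identical copies elsewhere in the genome, and how far reads of those copies enter these counts was not tested.

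Other members also had shares of at least 0.1 where their stretch was low in M-Z- embryos, with varied values. LOC547349, which shares exons with H2-D1 and H2-L, stood at 0.719 to 0.958 in all embryos, with no gap between the groups. Mdc1, a scaffold protein of the DNA damage checkpoint, stood at 0.174 to 0.293 in M-Z- embryos and at a mean of 0.574 in M-Z+ embryos. Gm8801 stood at 0.521 to 0.642 in M-Z- and at a mean of 0.777 in M-Z+ embryos. Ppp1r10, a regulatory subunit of protein phosphatase 1, reached 0.294 in female M-Z- replicate 2 and 0.12 in replicate 4, and BC051226 reached 0.267 in female M-Z- replicate 2. Both were low in the other M-Z- embryos with a share. Runx2, the bone cell transcription factor, stood at 0.147, 0.138 and 0.128 in the M-Z- males and at 0.60, 0.597, 0.633 and 0.463 in the M-Z- females. Cdc5l, a spliceosome protein, stood at 0.297, 0.313 and 0.363 in the M-Z- males and at 0.217 to 0.380 over all embryos. Zfp318, a zinc finger protein, stood at 0.309, 0.319 and 0.239 in the M-Z- males. Vegfa, the vascular endothelial growth factor, stood at 0.0994, 0.118 and 0.0909 there. Rn45s, the ribosomal RNA precursor, stood at 0.0491 to 0.118 in all embryos and did not split them.

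A pair of members was low in every embryo. AA388235 (34118437 to 34122303, plus strand) had 0 paternal reads of 2699 in the 23 embryos, which allows a share of up to 0.111%. Cd2ap, an adaptor of the kidney filtration barrier and of the cytoskeleton, had 5 paternal reads of 6012.

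**Figure D4:**
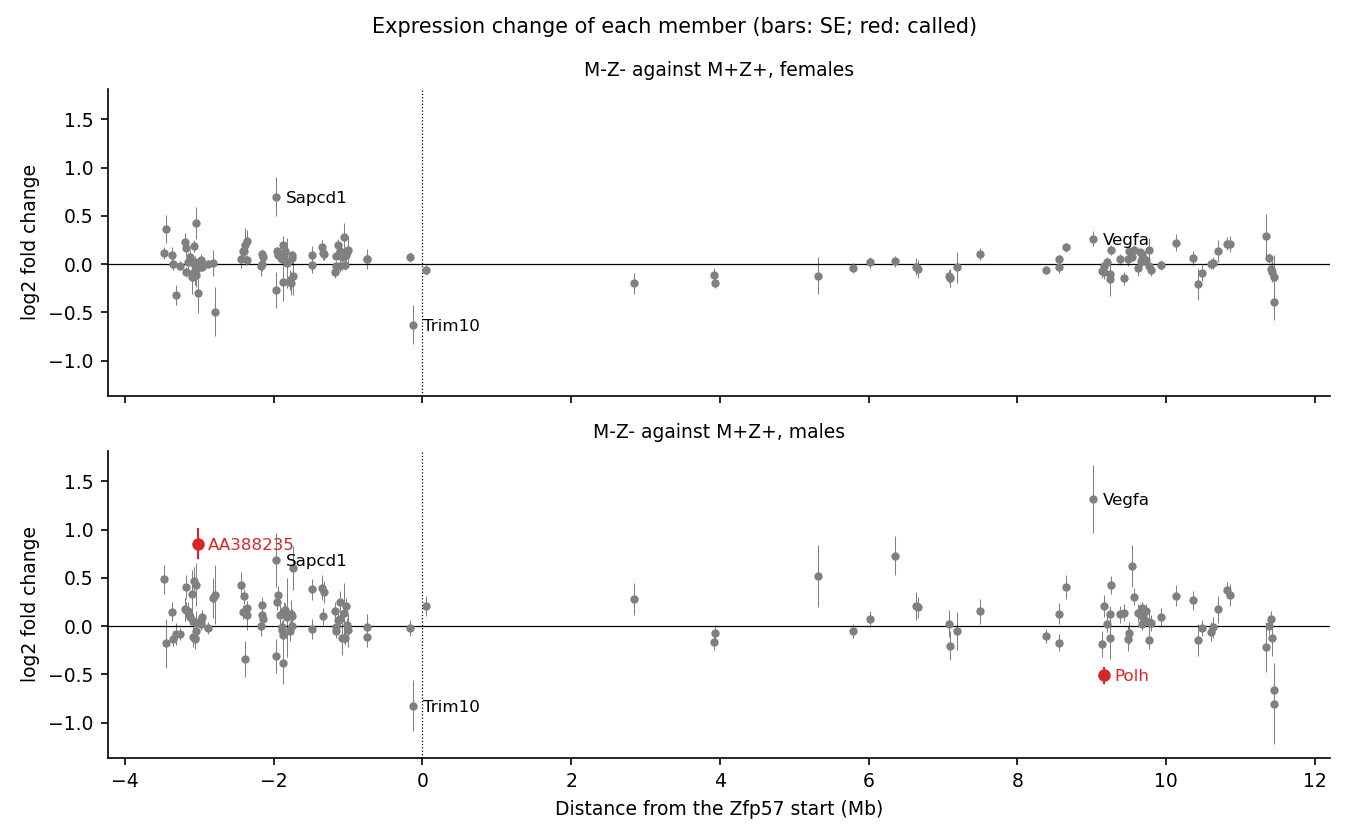
Each point is the log2 fold change of 1 member in M-Z- against M+Z+ embryos with its SE, against the distance from the Zfp57 start in Mb, for females above and males below; red marks the members called by edgeR. In females no member is red and in males AA388235 and Polh are.

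Expression from the gene tables was compared between genotypes within each sex. All 134 members passed the filter on low counts, and calls needed a Benjamini-Hochberg adjusted p under 0.05 over all genes tested with a log2 fold change of 0.5 or more either way. The question was whether members changed in total level where their allele reads changed. The rule did not use these fold changes, although allele reads are a part of the reads counted. They were a median of 35.6% of a member's reads, with a range of 2.13 to 97.6%.

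In M-Z- against M+Z+ females edgeR called 0 members, beside 0.563% of 16871 genes tested. At an unadjusted p below 0.05 there were 28 members, beside 15.5% of genes, and DESeq2 called 1 member, Sapcd1, beside 0.877%. The median log2 fold change of the members was 0.03, beside -0.0036 over all genes. The M+Z+ group of this comparison joins embryos with and without paternal proximal reads.

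In M-Z- against M+Z+ males edgeR called 2 members, beside 0.39% of 16664 genes, AA388235 higher and Polh lower. At an unadjusted p there were 35, beside 17% of genes. DESeq2 called 3, Adgrf5 with them, beside 1.1%. The median of the members was 0.09, beside 0.0017 over all genes. Without male M-Z- replicate 2 edgeR called 0 members and 51 of 16881 genes, and without male M-Z- replicate 3 it called 12 members and 899 of 16866 genes.

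The other comparisons called no member by edgeR. In M-Z- against M-Z+ females 0 members were called, beside 0.196% of genes, with 20 at an unadjusted p, beside 8.64%, and 0 by DESeq2, beside 0.273%. In M-Z- against M-Z+ males 0 were called, beside 0.15%, with 19 at an unadjusted p, beside 9.5%, and 1 by DESeq2, AA388235, beside 0.342%. The medians of the members were 0.02 in females and 0.04 in males. In M-Z+ against M+Z+ females 0 were called, beside 0.0593%, with 16 at an unadjusted p, beside 6.64%, and 1 by DESeq2, again AA388235, beside 0.0889%. In M-Z+ against M+Z+ males 0 were called, beside 0.048%, with 12 at an unadjusted p, beside 7.86%, and 0 by DESeq2, beside 0.078%. The M-Z+ males join replicate 1, with a median distal share of 0, and replicates 2 and 3, with medians of 0.505 and 0.499. The comparisons of M-Z- and M-Z+ with M+Z+ share the M+Z+ embryos.

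Whether the change differed by sex was tested with an interaction term. For M-Z- against M+Z+, 0 members were called by edgeR, beside 0% of 17139 genes, with 16 at an unadjusted p, beside 6.46%, and 0 by DESeq2, beside 0%. For M-Z- against M-Z+, 0 members were called by edgeR, beside 0%, with 8 at an unadjusted p, beside 4%, and 0 by DESeq2, beside 0%. So no call in males is shown to differ from females.

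The summed level of the stretches was close between groups. The proximal members summed to 7712 ± 193 CPM (SD, n = 6) in M+Z+, 7854 ± 114 (n = 3) in M-Z+ and 7985 ± 190 (n = 4) in M-Z- females. In males the sums were 7833 ± 79.0 (n = 4), 7976 ± 117 (n = 3) and 7942 ± 200.1 (n = 3). The distal members summed to 5114 ± 104, 5189 ± 199 and 5314 ± 122 CPM in females and to 5042 ± 82.7, 5046 ± 41.1 and 5471 ± 489 CPM in males, in the same order. The highest distal sum, 6021 CPM, was in an M-Z- male. The range of each group overlapped that of another of its sex in both stretches.

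The levels of the called members are given by embryo. AA388235, for which the tables give no other name, was at 4.79 and 5.51 CPM in female M+Z+ replicates 1 and 2 and at 10.4 to 12.2 CPM in replicates 3 to 6. It was at 4.43, 5.06 and 3.89 CPM in M-Z+ females and at 8.47, 7.15, 7.14 and 6.73 CPM in M-Z- females. In males it was at 4.49, 5.82, 4.94 and 3.98 CPM in M+Z+, at 5.14, 5.15 and 4.08 CPM in M-Z+ and at 8.50, 8.44 and 8.40 CPM in M-Z- embryos. The 7 M-Z- embryos all lay above the 6 M-Z+ embryos, and in males also above the 4 M+Z+ embryos.

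Beside the proximal share of the same embryo, AA388235 was high where that share was 0 in the 19 embryos whose columns could be joined by name. Each of the 7 embryos with a median proximal share of 0, all M-Z-, lay above each of the other 12, whose median shares were 0.484 to 0.512. The 4 unnumbered allelic columns cannot be matched one by one to female M+Z+ replicates 3 to 6, but as a set they are these embryos, by elimination, and all 4 had a proximal share of 0. This is a description with no test, since the share is measured and not labelled.

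The log2 fold change of AA388235 in M-Z- against M+Z+ males was 0.86 ± 0.158 (SE, edgeR adjusted p 0.0342). In M-Z- against M-Z+ males it was 0.88 ± 0.173 (adjusted p 0.0933) and in females 0.74 ± 0.266 (adjusted p 0.399). In M-Z+ against M+Z+ females it was -1.03 ± 0.249 (adjusted p 0.432), and in M-Z- against M+Z+ females -0.30 ± 0.21 (adjusted p 0.536). The sex difference of the change in M-Z- against M+Z+ was 1.14 ± 0.3 (adjusted p 0.725). The male call was lost without M+Z+ replicate 1 (adjusted p 0.148) or 3 (0.0982), or M-Z- replicate 1 (0.0549) or 2 (0.0715). A fit without the M-Z+ males lost it too (adjusted p 0.12), as did the fit with the replicate block. In a fit of all 23 embryos, which gives both sexes 1 genotype effect, the change was 0.15 (adjusted p 0.662).

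**Figure D5:**
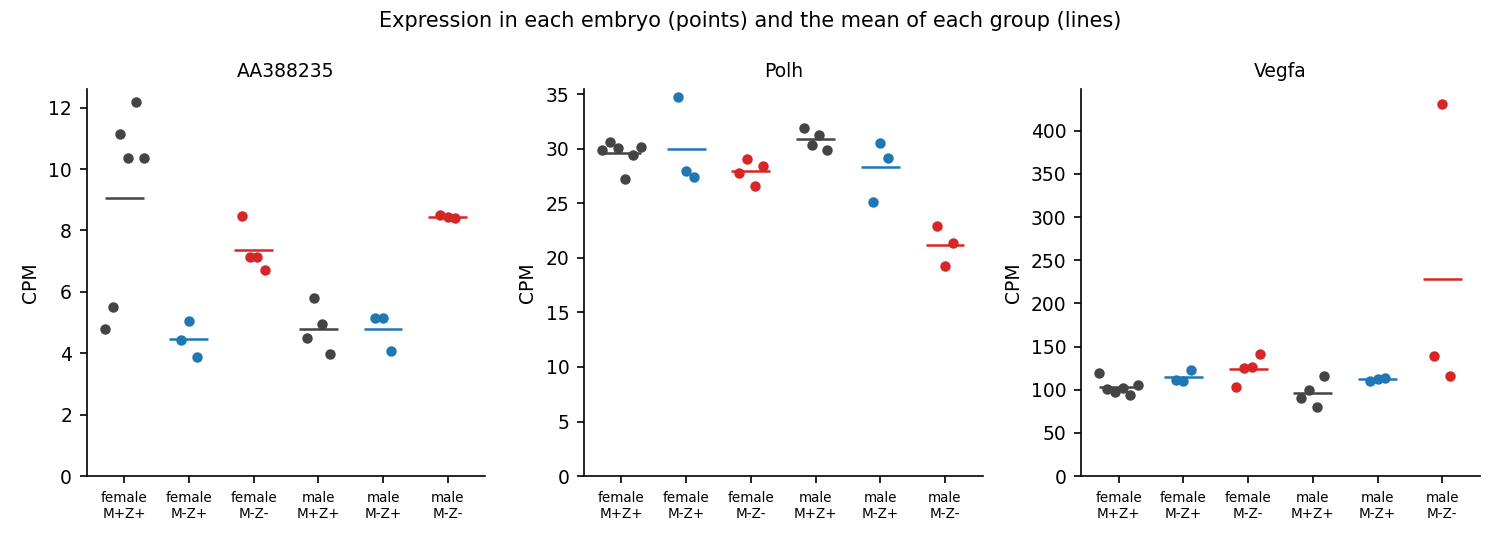
Points are the CPM of each embryo and lines the mean of each group for AA388235, Polh and Vegfa, by sex and genotype. The 4 highest AA388235 points, 10.4 to 12.2 CPM, are M+Z+ females, the 3 M-Z- males are the lowest for Polh, and 1 M-Z- male is at 431 CPM for Vegfa.

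Polh encodes DNA polymerase eta, which copies past ultraviolet damage, and lies in the distal stretch (46308304 to 46339590, minus strand). It was at 31.9, 30.4, 31.3 and 29.9 CPM in M+Z+ males and at 22.9, 19.3 and 21.3 CPM in M-Z- males. In M-Z+ males it was at 25.2, 30.6 and 29.2 CPM, the first of these being replicate 1, whose distal share was 0. In females it was at 27.3 to 30.6 CPM in M+Z+ embryos, at 34.7, 28.0 and 27.4 CPM in M-Z+ and at 27.8, 29.0, 26.5 and 28.4 CPM in M-Z- embryos. The 4 embryos with a median distal share of 0 had the lowest levels, below all 13 females and the other 6 males. This is a description with no test, since Polh was called for its lower level in M-Z- males, which are among these embryos. The paternal reads of Polh in M-Z- males were 0 of 194, which allows a share of up to 1.55%. Its share in M-Z+ males was 0.018, 0.571 and 0.60.

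The log2 fold change of Polh in M-Z- against M+Z+ males was -0.51 ± 0.0884 (SE, edgeR adjusted p 0.0232), with the 3 M-Z- males below the 4 M+Z+ males. Every M-Z- male and no M+Z+ male had a median distal share of 0. Genotype and distal share therefore cannot be told apart in this comparison. Against M-Z+ males the change was -0.36 ± 0.0945 (adjusted p 0.362). In females it was -0.08 ± 0.0678 in M-Z- against M+Z+ (adjusted p 0.608), and the sex difference was -0.43 ± 0.107 (adjusted p 0.725). The call was lost without M+Z+ replicate 1, 2 or 3 (adjusted p 0.0801 to 0.111), and without M-Z- replicate 2 or 3 the change was -0.48 or -0.49, below the size required. Fitted without the M-Z+ males it missed the threshold (adjusted p 0.0519), and in the fit of all 23 embryos the change was -0.25 (adjusted p 0.016).

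The promoters shown are those of the members that edgeR called in M-Z- against M+Z+ males. Each is the 250 bases before and the 50 bases after the start in RefSeq (GRCm38.p6, not the build of the tables), 5′ to 3′ on the gene's strand, with the transcribed bases in capitals. AA388235 is chr17:33981242-33981541 on the plus strand and Polh is chr17:46202592-46202891 on the minus strand.
AA388235: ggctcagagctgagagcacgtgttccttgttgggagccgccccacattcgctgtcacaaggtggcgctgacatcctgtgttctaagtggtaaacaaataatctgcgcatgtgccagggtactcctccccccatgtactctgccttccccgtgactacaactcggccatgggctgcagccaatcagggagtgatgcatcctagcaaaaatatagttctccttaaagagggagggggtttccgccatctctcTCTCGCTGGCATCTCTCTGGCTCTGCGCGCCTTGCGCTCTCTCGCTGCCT
Polh: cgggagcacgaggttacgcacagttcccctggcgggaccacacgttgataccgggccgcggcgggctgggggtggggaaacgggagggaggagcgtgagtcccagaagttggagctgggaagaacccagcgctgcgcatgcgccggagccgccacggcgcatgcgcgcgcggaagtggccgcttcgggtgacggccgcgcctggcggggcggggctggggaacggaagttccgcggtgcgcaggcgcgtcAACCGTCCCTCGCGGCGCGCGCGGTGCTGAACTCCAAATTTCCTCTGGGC

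The AA388235 window has a GC content of 56.3% and the Polh window 72%. The letters TGCCGC, which ZFP57 is known to bind when methylated, were searched on both strands (GCGGCA on the other). Neither window holds them. Of the 134 members, 111 matched the promoter table, with 150 promoters, of which 25 (16.7%) hold the letters. They are in 10 of 86 proximal promoters (11.6%) and 15 of 64 distal promoters (23.4%), beside 3813 of 32851 promoters of this length in the table (11.6%). A match is a description and not a bound site, and no match says only that these letters are not in the window.

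Several members that edgeR did not call in the fits of all embryos of a sex had their highest or lowest value among the M-Z- males in replicate 2. They were picked after their values were seen. In M-Z- against M+Z+ males DESeq2 called Adgrf5, and the fit of all 23 embryos called Vegfa and Trim10, with Tspo2 and Sapcd1. Tspo2 was also called by edgeR without male M-Z- replicate 3, with a change of -1.02. Its change without male M-Z- replicate 2 was -0.33. Vegfa was at 139, 431 and 116 CPM in the M-Z- males and at 90.5, 99.2, 79.9 and 115.8 CPM in the M+Z+ males, a log2 fold change of 1.32 ± 0.352 (edgeR adjusted p 0.122). In females it was 0.26 ± 0.0774 (adjusted p 0.107). Adgrf5, an adhesion receptor of endothelium and lung, was at 39.8, 74.9 and 37.9 CPM in the M-Z- males and at 30.2 to 34.6 CPM in the M+Z+ males (0.73 ± 0.202, adjusted p 0.133). Trim10 was at 54.0, 23.4 and 84.4 CPM in the M-Z- males and at 83.8 to 114 CPM in the M+Z+ males (-0.82 ± 0.266, adjusted p 0.168). Trim10 in females was at 63.0, 49.1, 30.8 and 68.8 CPM in M-Z- and at 66.6 to 110 CPM in M+Z+ embryos (-0.63 ± 0.205, adjusted p 0.149). Vegfa, Adgrf5 and Trim10 were called without male M-Z- replicate 3, with changes of 1.65, 0.92 and -1.28. Without male M-Z- replicate 1 none of them was called. Their changes there were 1.595, 0.89 and -0.82 (edgeR adjusted p 0.061, 0.0668 and 0.193). Without replicate 2, the change of Vegfa was 0.40, that of Adgrf5 0.28 and that of Trim10 -0.49. The erythroid markers summed to 14261, 29861 and 13992 CPM in the M-Z- males in this order, and their part in these values was not tested.

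The other genes of the histocompatibility complex were followed in 3 lists of named genes by region. AA388235 lies between Vps52 and Ring1 of the class II list but is not on it, so its calls are not in the counts of that list. No listed gene was called by edgeR in any of the 6 comparisons fitted by sex, and DESeq2 called the listed gene Sapcd1, of the class III region, in M-Z- against M+Z+ females. The class II side of the complex, which holds the peptide transporters, had 15 members tested, with a median log2 fold change in M-Z- against M-Z+ of 0.03 in females and 0.06 in males. B3galt4, a galactosyltransferase of gangliosides, had the highest value in females, 0.45 ± 0.202 (adjusted p 0.529), and Ring1, a Polycomb ubiquitin ligase, the lowest, -0.18 ± 0.0772 (adjusted p 0.525). In males B3galt4 was at 0.60 ± 0.244 and Ring1 at 0.11 ± 0.0822. Tap2, a subunit of the peptide transporter, was at -0.15 ± 0.302 in females and at -0.44 ± 0.314 in males.

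The class III region, a mix of complement, cytokine and housekeeping genes, had 23 members tested, with medians of 0.02 in females and 0.08 in males. Sapcd1 had the highest value, with a log2 fold change of 0.88 ± 0.248 (adjusted p 0.225) in females, beside 0.87 ± 0.309 (adjusted p 0.48) in males. It was at 3.23, 3.31, 2.57 and 4.25 CPM in M-Z- females and at 1.91, 1.96 and 1.62 CPM in M-Z+ females. In males it was at 2.39, 4.34 and 3.44 CPM in M-Z- and at 1.89, 1.65 and 2.27 CPM in M-Z+ embryos. The M-Z- embryos lay above the M-Z+ embryos in both sexes, and the edgeR fits by sex called neither. In the fit of all 23 embryos, Sapcd1 was called in M-Z- against M-Z+, with a change of 0.88 ± 0.189 (adjusted p 0.0146), as 1 of 97 genes of 17139. Msh5, a MutS homologue of meiosis, had the lowest value in females, -0.58 ± 0.213 (adjusted p 0.409). Lst1, a leukocyte gene, was at -0.39 ± 0.298 and Egfl8, a secreted protein with EGF repeats, at 0.33 ± 0.205. In males Msh5 was at -0.37 ± 0.189, Lst1 at -0.03 ± 0.436 and Egfl8 at -0.22 ± 0.2.

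The class I side had 19 members tested, with medians of 0.06 in females and -0.01 in males. In females Gabbr1 was at -0.18 ± 0.0601 (adjusted p 0.342) and Rpp21, a subunit of ribonuclease P, at 0.19 ± 0.124 (adjusted p 0.709). In males Gabbr1 was at 0.05 ± 0.111 (adjusted p 0.916) and Rpp21 at -0.29 ± 0.14 (adjusted p 0.538).

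By edgeR the lists by function had no called member in these comparisons either. The 4 chaperones had a median of 0.09 in M-Z- against M-Z+ females and 0.08 in males, with Hsp90ab1 at 0.07 ± 0.0553 in females and 0.27 ± 0.117 in males. Fkbpl, a partner of HSP90, was at 0.30 ± 0.139 in females and at -0.10 ± 0.163 in males. The 7 genes of translation and ribosome assembly had medians of 0.08 and 0.06, with Rps18 at 0.10 ± 0.14 and 0.22 ± 0.126. The 18 genes of transcription and chromatin had medians of 0.01 and 0.05. Among these Mdfi, an inhibitor of myogenic factors, was at 0.29 ± 0.0812 in females (adjusted p 0.225) and Runx2 at -0.21 ± 0.0716 (adjusted p 0.353). In males Mdfi was at 0.23 ± 0.0933 and Runx2 at 0.04 ± 0.136. The medians of the 5 genes of complement, cytokines and antigen processing were -0.15 and -0.03. Those of the 7 growth and vascular genes were 0.11 and 0.21, those of the 6 ubiquitin pathway genes 0.00275 and -0.11, and those of the 6 RNA processing genes 0.04 and 0.06. Over all genes tested the medians were -0.0017 in females and 0.0050 in males.

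For Hsp90ab1 the level and the share can be set side by side. The gene was at 2153, 2701 and 2138 CPM in the M-Z- males, with shares of 0.231, 0.223 and 0.224. It was at 2294, 2200.01, 2255 and 2038 CPM in the M+Z+ males, with shares of 0.571, 0.575, 0.570 and 0.595. The log2 fold change was 0.13 ± 0.109 (edgeR adjusted p 0.559). Tubb5, with a share near 0 in all M-Z- embryos, had a log2 fold change in M-Z- against M+Z+ of 0.09 ± 0.0493 (adjusted p 0.403) among females. Among males it was -0.05 ± 0.0748 (adjusted p 0.771). A p that misses the threshold does not show that the levels are alike.

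Overlaps between genes limit 7 members, which share an exon with a gene on the same strand: Csnk2b and Ly6g5b, Ddx39b and Mir8094, Gm20517 and Usp49, and LOC547349. A read over a shared exon was counted for each gene, so the values of these genes are uncertain.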

How the data were processed

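RNA was sequenced from 23 whole embryos (13 female, 10 male). Per the labels and the methods of the study, the authors trimmed reads with Trim Galore, aligned them to mm9 with STAR 2.7.8a and deposited raw counts per gene from featureCounts (Subread 2.0.1, by strand, with reads over overlapping genes counted for each). For the allelic tables, the authors called strain variants, masked them in mm9, split the reads by allele with SNPsplit and deposited counts of paternal and maternal reads per gene. Reads without a variant are in neither allele, and an error in the variants moves the share of a gene in all embryos.

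Expression was tested with edgeR's quasi-likelihood test (edgeR 4.0.16, R 4.3.3) on the raw counts, with TMM and filterByExpr, in 1 fit of the 3 genotypes per sex and with Benjamini-Hochberg adjustment over all genes tested. The sexes were compared by an interaction term over all 23 embryos. DESeq2 1.42.0 was an alternative, and the test was tried on simulated data. CPM is the count over the total in M. The allelic and gene columns were joined by name for 19 embryos. The other 4 have no number of their own in the allelic table, where each of 4 header names is used for 2 embryos. In each comparison, members called with at least 1 CPM and no overlap between groups were named, up to 5 in each direction, and with them the 5 nearest to Zfp57 on each side, the first and last 3, the 3 genes outside each end, the 5 with the most allele reads, the 5 with the highest share in M-Z- embryos and 2 to 4 of each list. The members and lists were chosen with earlier results of these data known. The total counts of 15.2 to 24.1 M and a minimum of 20 allele reads set the precision.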

Additional observations from a re-analysis of the deposited data

Results flagged for a closer look

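Of 35 groups of 4 to 6 embryos checked, each for 1 measure, 2 held an embryo far from the others by Dixon's test, and chance alone gives about 1 in 20. Polh in female M+Z+ replicate 4 was at 27.3 CPM, with the nearest of the other 5 embryos at 29.4 CPM and the farthest at 30.6 CPM. Zfp57 in female M+Z+ replicate 1 was at 99.1 CPM, with the nearest at 68.4 CPM and the farthest at 52.7 CPM. Groups of 3 embryos, such as the M-Z- males, could not be checked in this way.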

How the results depend on the processing

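In M-Z- against M+Z+ males, 2 members were called, and 0 were with only the 2 compared groups, 4 in a fit of all 23 embryos with sex as a term (Sapcd1, Trim10, Tspo2 and Vegfa, among 376 of 17139 genes, against 65 of 16664) and 0 to 12 without 1 embryo. It was 0 when M+Z+ replicate 1 or 3 or M-Z- replicate 2 was left out, 1 for M+Z+ replicate 2 or M-Z- replicate 1, 3 for M+Z+ replicate 4 and 12 for M-Z- replicate 3. Among all genes these fits called 41, 45 and 51, then 41 and 92, then 144 and then 899, in the same order, against 65. AA388235 was called in 3 and Polh in 2 of these 7 fits, with adjusted p-values of 0.0127 to 0.148 and 0.0136 to 0.111. Over the other 6 alternatives they were called in 3 and 4, with adjusted p-values of 0.00056 to 0.662 and 0.000172 to 0.0519. In M-Z- against M-Z+ males the count was 0, against 1 in the fit of all embryos, 1 by DESeq2 and 0 to 5 without 1 embryo, the 5 being without M-Z- replicate 3, where 376 of 16866 genes were called, against 25. In females it was 0, against 4 in the fit of all embryos and 1 by DESeq2 (M-Z- against M+Z+), 1 by DESeq2 and 0 to 1 without 1 embryo, the 1 being without M+Z+ replicate 1 (M-Z+ against M+Z+), and 1, Sapcd1, in the fit of all embryos (M-Z- against M-Z+, 97 genes). The fit of all embryos assumes 1 genotype effect in both sexes, so its counts are the same in both. With the replicate block the male count of M-Z- against M+Z+ was 2, Polh and Tjap1, among 128 of 16664 genes. The other counts with the block were 0. Nothing in the labels says that the replicate numbers pair the embryos. For embryos with the same number, deviations from the group mean were correlated over genes. Only 2 of 10 pairs in females (r -0.249 to 0.215) and 2 of 9 in males (-0.157 to 0.419) were above 0.1. With so few embryos in a group, these values cannot exclude a pairing. No call of these fits was in the opposite direction.

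The median share of the whole interval was 0.00183 in M+Z+ (replicates 1 and 2 at 0.499 and 0.497), 0.50 in M-Z+ and 0.00135 in M-Z- females, and 0.502 in M+Z+, 0.50 in M-Z+ and 0 in M-Z- males. Pooled over reads it was 0.236 in M+Z+ (0.212 to 0.453), 0.464 in M-Z+ and 0.230 in M-Z- females and 0.467 in M+Z+, 0.455 in M-Z+ and 0.0628 in M-Z- males. Over members with at least 100 allele reads it was 0.000136 in M-Z- females. Leaving out 1 embryo gave 0.000726 to 0.00292, 0.50 to 0.502 and 0.00117 to 0.00152 in females and 0.50 to 0.504, 0.467 to 0.503 and 0 in males. Members near 20 allele reads have shares with a wide counting error.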
